A study of Mus musculus with 20 samples.

Results

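The liver makes most of the complement, clotting and fibrinolysis proteins of the blood, and 42 of their transcripts were followed here in livers with an obstructed bile duct. The members were chosen by gene name as liver-made complement and coagulation components and inhibitors, 42 of 54532 entries of the deposited table. All 42 were among the 14059 genes that passed the filter on low values. Of these, 21 belong to complement and 21 to clotting, its inhibitors and fibrinolysis.

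Complement is a chain of plasma proteases. The classical pathway starts when C1r activates C1s, which cleaves C4 and C2, the lectin pathway when mannose-binding lectins activate the proteases MASP-1 and MASP-2, and the alternative pathway when factor B joins C3b. All meet at C3, and C5 to C9 then build the membrane attack complex. In clotting, vitamin K-dependent zymogens are activated in turn until thrombin cuts fibrinogen to fibrin, antithrombin and the protein C system restrain them, and plasmin dissolves the clot. Several of these proteins, fibrinogen and C3 among them, are known as acute-phase proteins. Cholestasis is known clinically for poor uptake of vitamin K from the gut, which limits a modification of clotting factors after translation.

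Polyadenylated RNA from mouse liver was sequenced in 4 groups of 5 libraries: wild-type mice after sham surgery, STING knockout mice after sham surgery, wild-type mice after 7 days of bile duct ligation, and STING knockout mice after the same ligation. STING passes the signal of DNA found in the cytosol on to interferon production. The question posed is how its loss alters gene expression in the livers of cholestatic mice. The titles name the knockout without an allele, and the labels give no strain, age or sex. Values are FPKM, fragment counts divided by transcript length and library depth, which the authors had already scaled between libraries. Where the values of a group are given one by one, libraries keep the same order throughout. Each change is the log2 fold change between 2 groups of n = 5 libraries, taken on FPKM + 0.5 and printed ± its standard error. It was called where limma gave a Benjamini-Hochberg adjusted p under 0.05 over all tested genes, and adjusted p-values are from that fit.

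The libraries held between 14943866 and 20898314 assigned fragments, recovered from the values. Tmem173, which encodes STING, was lower in the libraries labelled knockout, at 0.588 to 1.06 FPKM against 0.843 to 2.34 after sham surgery (exact permutation p = 0.0159, two-sided) and at 0.638 to 2.57 against 2.60 to 4.61 after ligation (exact permutation p = 0.00794, two-sided). Each group mixed libraries with Y-linked transcripts and libraries with Xist, 2 to 3 of each, but the mix was not the same. Y-linked transcripts marked 2 libraries of sham wild types and of ligated knockouts, and 3 of sham knockouts and of ligated wild types. Every comparison of surgery or genotype thus set unlike mixes of the 2 kinds against each other. BDL_KO_2248 and BDL_KO_2359 stood apart from the other ligated knockouts. Their summed FPKM was 524471 and 480917 against 332878 to 361980, and Sham_KO_2347 and Sham_KO_2349 likewise read 547332 and 500908 against 408397 to 432848 in the other sham knockouts. Some results that rest on these libraries are given with and without them. Those under other scalings of the libraries were read with them only. The 13 hepatocyte markers, Alb and Apoa1 among them, were present in every library, which fits the labelled tissue. Their summed level was 53110 to 70621 FPKM in sham and 25173 to 36385 in ligated wild types, and 58370 to 77550 in sham and 35633 to 65532 in ligated knockouts. In bulk liver, fewer hepatocytes and less RNA per hepatocyte cannot be told apart.

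After ligation in wild-type livers, 19 of the 42 members were called, 6 higher and 13 lower, when over all genes 35.6% were called, 18.1% higher and 17.5% lower. Of the complement members 5 rose and 4 fell with a median change of 0.10, and of the clotting and fibrinolysis members 1 rose and 9 fell with a median of -0.30 under the deposited scaling, against a median of -0.02 over all genes. In the knockout 11 members were called, 6 higher and 5 lower, against 25.1% of all genes, 12.3% higher and 12.9% lower. Complement members there had 5 higher and 3 lower with a median of 0.28, and clotting members 1 higher and 2 lower with a median of 0.05.

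The balance of higher and lower calls depended on how libraries were scaled. Scaling every library to the same sum (TPM) moved the median of all genes in the wild-type comparison by 0.28, and the members then counted 15 higher and 5 lower, with 82.0% of all calls higher in place of 50.8%. Scaling to total assigned fragments moved it by 0.17 and gave 9 higher and 8 lower members, with 70.9% of all calls higher. Quantile normalization also gave 15 and 5 members, although there 49.1% of all calls were higher and the median of all genes moved by -0.06. Clotting and fibrinolysis members, 1 higher and 9 lower as deposited, became 5 higher and 3 lower under TPM and under quantile normalization (medians 0.03 and 0.09) and 2 higher and 5 lower under total fragments. Complement members became 10 higher and 2 lower, 10 and 2, and 7 and 3. In the same order, 4616, 2613 and 3401 of all 14059 tested genes were called higher, and 1017, 2710 and 1393 lower. The median of complement members exceeded that of clotting members by 0.39 under the deposited scaling and by 0.31 under quantile normalization. In the knockout comparison that gap was 0.23 and 0.26. TPM and total-fragment scaling multiply each library by 1 factor, so by construction they left the gap at 0.39 and 0.23. TPM and quantile normalization each gave 14 higher and 2 lower members in the knockout, and total fragments 12 and 4. Of all calls there, 75.8% were higher under TPM, 49.7% under quantile normalization and 57.6% under total fragments. In that order, 2118, 1766 and 1532 of all tested genes were called higher, and 675, 1785 and 1128 lower. With the direction kept and the call made under all 4 scalings, 10 members remained in wild types. Of these C1s1, C2, C4bp, C3, Cfb and Pros1 rose, and Masp2, C8g, F7 and F13b fell. In knockouts 8 remained, with C4b, C4bp, Masp1, C3, Hc and Pros1 higher and Mbl1 and C8g lower. The markers of several cell types moved with the same contrast: 6 of 13 hepatocyte markers were called lower and 0 higher in ligated wild types, while 8 of 8 tested cholangiocyte markers and 8 of 10 monocyte and macrophage markers were called higher. The part of this shift in the members' changes was not tested.

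Within libraries of 1 kind, where fewer libraries entered and the groups no longer differed in their mix of kinds, fewer members were called. The cause was not tested. With Y-linked transcripts 3 rose and 6 fell in wild types and 2 rose and 2 fell in knockouts, and with Xist 0 rose and 3 fell, and 2 rose and 1 fell. C3 measured 1.65 and 0.85 in wild types and 1.29 and 1.35 in knockouts in the Y-linked and Xist libraries, and C8g was called in both kinds and both genotypes, at -1.30 or lower. In knockouts 8 members rose and 8 fell on leaving out BDL_KO_2248 and BDL_KO_2359, when 2641 of all 14059 genes rose and 2558 fell, with Cfp and C2 added to the higher and F2, F7 and F13b to the lower ones. Leaving out Sham_KO_2347 and Sham_KO_2349 left 6 higher and 2 lower members in knockouts, when 1164 genes rose and 1115 fell, and ended the calls of Masp2 (-0.32), F11 (-0.42) and Proc (-0.20).

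**Figure D1:**
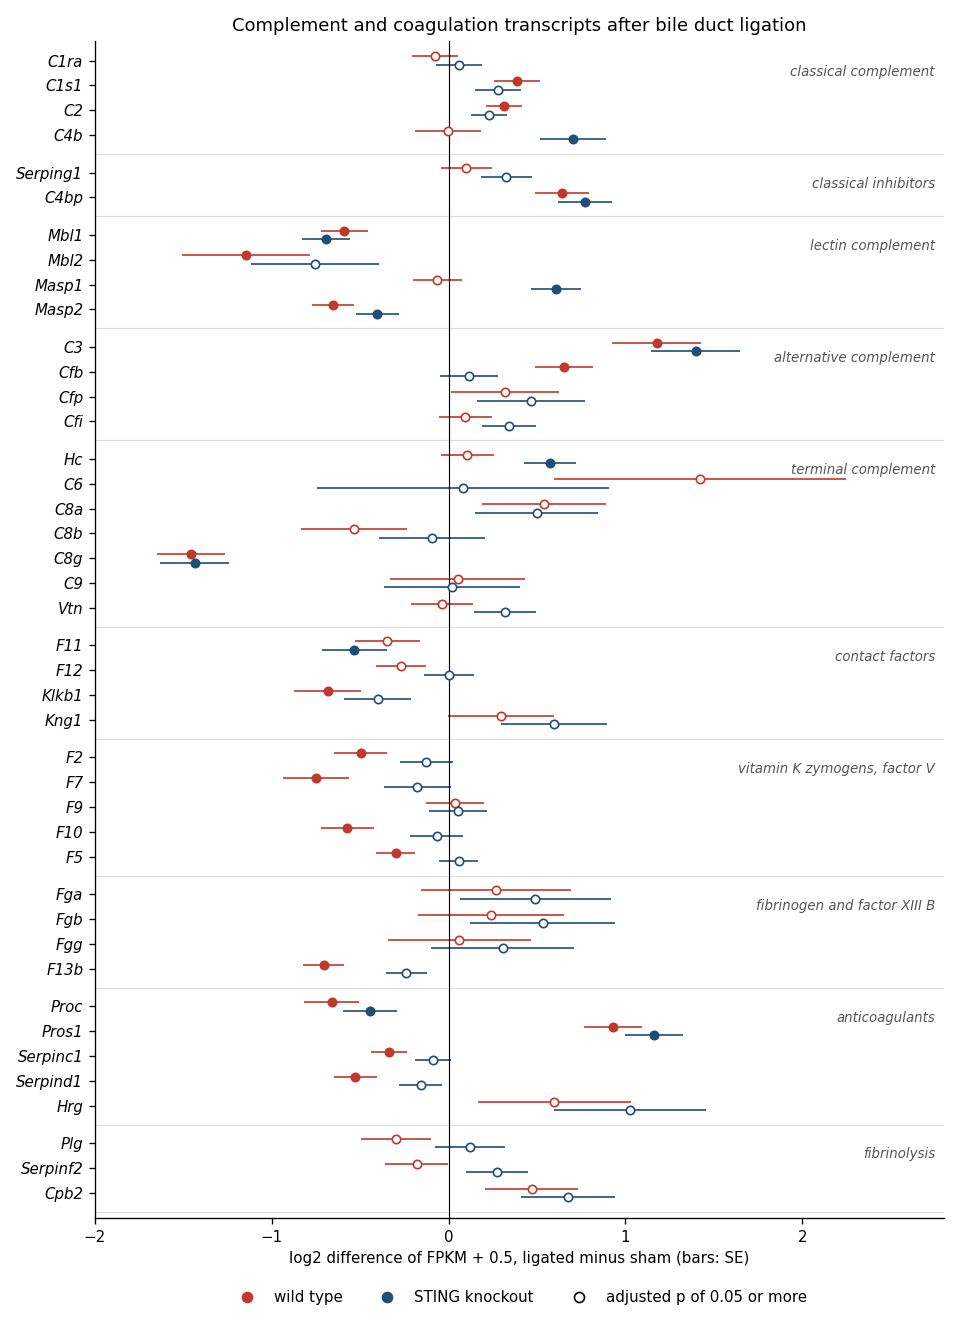
Log2 difference of FPKM + 0.5 between ligated and sham livers for the 42 members, by role, in wild types (red) and STING knockouts (blue). Bars show the standard error and filled points an adjusted p under 0.05 under the deposited scaling, where 6 members lie higher and 13 lower in wild types. Under TPM or quantile scaling the split is 15 and 5. Over all genes it is 4616 higher and 1017 lower under TPM, and 2613 and 2710 under quantile scaling.

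Of the 4 classical pathway members, 2 were called higher in ligated wild types and 1 in ligated knockouts. C1s1, the protease C1s, measured 141, 137, 121, 133 and 111 FPKM in sham wild types and 186, 211, 144, 189.6 and 124 after ligation. In knockouts it measured 119, 116, 116, 97.8 and 99.6 after sham surgery and 138, 124, 122, 132 and 152 after ligation. The groups overlapped in wild types only through the lowest ligated library, and did not overlap in knockouts. The change was 0.39 ± 0.13 (adjusted p = 0.0265) in wild types and 0.28 ± 0.13 (adjusted p = 0.124) in knockouts. The wild-type call was lost on leaving out any 1 of 5 libraries (Sham_Wt_2227, Sham_Wt_2229, BDL_Wt_2233, BDL_Wt_2235 or BDL_Wt_2237).

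C2, the zymogen that joins C4b in the classical convertase, read 13.7, 14.3, 13.1, 13.4 and 11.8 FPKM in sham wild types, 15.6, 16.1, 17.7, 16.3 and 17.2 in ligated wild types, 10.2, 9.38, 9.11, 9.39 and 6.59 in sham knockouts and 10.8, 10.5, 8.57, 10.6 and 12.03 in ligated knockouts. All 5 ligated wild types exceeded all sham wild types, and all wild types but one exceeded every knockout. That exception was the lowest sham wild type, which read below the highest ligated knockout. The change with ligation was 0.31 ± 0.10 (adjusted p = 0.0204) in wild types, a call lost without Sham_Wt_2229 or BDL_Wt_2236, and 0.23 ± 0.10 (adjusted p = 0.106) in knockouts. Of the exonic bases of C2, 42.8% are shared with Gm20547, an annotated transcript unit on the same strand that runs across C2 and Cfb and is listed at 0 in every library, so its value may rest on part of the gene.

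C4b, the mouse C4, was called higher after ligation in the knockout and not in the wild type. Its values were 363, 441, 472, 466 and 452 FPKM in sham wild types and 467, 452, 420.2, 493 and 361 after ligation, and 257, 292, 277, 237 and 256 in sham knockouts and 503, 267, 688, 468 and 335 after ligation. Sham knockouts lay below every sham wild type, while the ligated knockouts spread over the widest range of the 4 groups. The change was 0.00 ± 0.19 (adjusted p = 0.993) in wild types and 0.70 ± 0.19 (adjusted p = 0.0102) in knockouts, and 0.40 ± 0.15 in knockouts without BDL_KO_2248 and BDL_KO_2359, where it was still called (adjusted p = 0.05 after rounding). The difference between these changes was 0.71 ± 0.26 (adjusted p = 0.25). C4a, a near-identical copy with 0.933 to 4.06 FPKM, shares reads with C4b, so the split between them is uncertain. C1ra, the protease C1r, ranged from 69.7 to 128 FPKM over all libraries and was not called as deposited.

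Among inhibitors of the classical pathway, C4bp, which binds C4b, rose in both genotypes. It measured 104, 99.5, 85.8, 92.2 and 102 FPKM in sham and 158, 157, 156, 174 and 116 in ligated wild types, and 95.2, 95.8, 95.5, 65.3 and 77.9 in sham and 169, 119, 199, 132 and 124 in ligated knockouts. No ligated library fell within the sham range of its genotype. The changes were 0.64 ± 0.15 (adjusted p = 0.00274) and 0.77 ± 0.15 (adjusted p = 0.0013). Serping1, the C1 inhibitor, ranged from 349 to 679.9 FPKM and was not called as deposited, with 0.10 ± 0.14 in wild types and 0.33 ± 0.14 in knockouts. Under TPM, total-fragment and quantile scaling it was called higher, at 0.42, 0.29 and 0.40 in wild types and 0.51, 0.38 and 0.54 in knockouts, and lower in sham knockouts than in sham wild types, at -0.57, -0.50 and -0.59.

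Of the 4 lectin pathway members 3 fell in wild types, and in knockouts 2 fell and 1 rose. Both mannose-binding lectins and Masp2 were called lower in wild types, and Mbl1 and Masp2 in knockouts, but under TPM and quantile scaling the wild-type calls of Mbl1 and Mbl2 were lost, that of Mbl2 under total-fragment scaling too. Mbl1 measured 144, 129.9, 118, 131 and 165 FPKM in sham and 82.9, 81.3, 98.4, 85.6 and 108 in ligated wild types, and 209.6, 174, 161, 125 and 142 in sham and 117, 90.7, 101, 87.97 and 100.2 in ligated knockouts. Every ligated library lay under every sham library of its genotype. The changes of Mbl1 were -0.59 ± 0.14 (adjusted p = 0.00226) and -0.69 ± 0.14 (adjusted p = 0.00127).

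Mbl2 measured 235, 214, 513, 569 and 560.2 FPKM in sham and 163, 137, 169, 116 and 352 in ligated wild types, and 382, 255, 266, 495 and 433 in sham and 174, 246, 120.3, 189 and 413 in ligated knockouts. The groups overlapped in both genotypes, and the lower of the sham values belonged to the libraries with Y-linked transcripts. Its change of -1.15 ± 0.36 (adjusted p = 0.0185) in wild types was lost without Sham_Wt_2228, Sham_Wt_2229 or BDL_Wt_2237, and it measured -0.76 ± 0.36 (adjusted p = 0.135) in knockouts.

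Masp2, the protease that cleaves C4 and C2 in the lectin pathway, measured 52.04, 50.8, 42.8, 47.5 and 43.8 FPKM in sham and 32.3, 34.2, 26.9, 32.8 and 24.2 in ligated wild types. Sham knockouts read 55.9, 49.2, 47.4, 44.4 and 43.6 and ligated knockouts 44.6, 30.4, 41.2, 31.3 and 35.1. Wild-type groups were separate and knockout groups overlapped through 1 ligated library. Its changes were -0.65 ± 0.12 (adjusted p = 3.7e-04) and -0.40 ± 0.12 (adjusted p = 0.0203), and the knockout call was lost without Sham_KO_2347, BDL_KO_2365 or BDL_KO_2370, and under TPM and quantile scaling. Of its exonic bases 54.9% lie opposite Tardbp, and no source used here states whether strand entered the counting. Masp1, whose product activates MASP-2, was called higher in knockouts at 0.61 ± 0.14 (adjusted p = 0.0041) and measured -0.06 ± 0.14 in wild types. Without BDL_KO_2248 and BDL_KO_2359 the knockout change of Masp1 was 0.41 ± 0.10. The level of Masp1 per that of Masp2 was 0.266 to 0.423 in all sham livers and 0.449 to 0.818 in all ligated livers, with no overlap. Masp2 was called lower in both genotypes and Masp1 was not, so this ratio is not evidence apart from those calls. Not every ratio formed between members was separate. That of C4b to C4bp overlapped, at 2.696 to 5.504 in all sham and 2.247 to 3.547 in all ligated livers, although not within wild types.

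C3, the component on which all pathways converge (chr17:57203970-57228136 on GRCm38, GENCODE M21), had the largest called rise of any member. It measured 1288, 1459, 1978, 2640.4 and 2356 FPKM in sham and 4265, 4391, 4214, 5411 and 3189 in ligated wild types, and 1444, 1670.5, 1264, 1702 and 2049.5 in sham and 4906, 2562, 6722, 4925 and 3229.8 in ligated knockouts. Ligated libraries exceeded sham libraries in both genotypes without overlap, by 1.18 ± 0.25 (adjusted p = 0.00123) and 1.40 ± 0.25 (adjusted p = 6.3e-04). The change in knockouts was 1.10 ± 0.25 without BDL_KO_2248 and BDL_KO_2359 (limma adjusted p = 0.00263).

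Factor B, its partner in the alternative convertase, was called higher after ligation only in wild types. Cfb measured 1.46, 1.59, 1.01, 1.61 and 1.36 FPKM in sham and 2.56, 2.23, 2.91, 2.26 and 2.43 in ligated wild types, and 0.790, 1.13, 1.55, 1.15 and 1.56 in sham and 1.06, 1.49, 0.988, 2.36 and 1.15 in ligated knockouts. Ligated wild types stood above every other library except 1 ligated knockout. The change was 0.65 ± 0.16 (adjusted p = 0.00464) in wild types and 0.12 ± 0.16 (adjusted p = 0.651) in knockouts, and the difference between them was -0.54 ± 0.23 (adjusted p = 0.341). These low values rest on 31 to 176 fragments a library, and 79.5% of the exonic bases of Cfb are shared with Gm20547, so they may describe a small stretch of the gene. Cfp (properdin, which stabilizes the convertase) ranged from 16.2 to 63.2 FPKM and Cfi (factor I, which inactivates C3b and C4b) from 289 to 610.1. Neither was called in the 5 comparisons of surgery and genotype as deposited. Under TPM, total-fragment and quantile scaling Cfi was called higher after ligation, at 0.42, 0.29 and 0.44 in wild types and 0.52, 0.40 and 0.56 in knockouts, and Cfp was called higher in knockouts, at 0.92 ± 0.30, without BDL_KO_2248 and BDL_KO_2359.

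**Figure D2:**
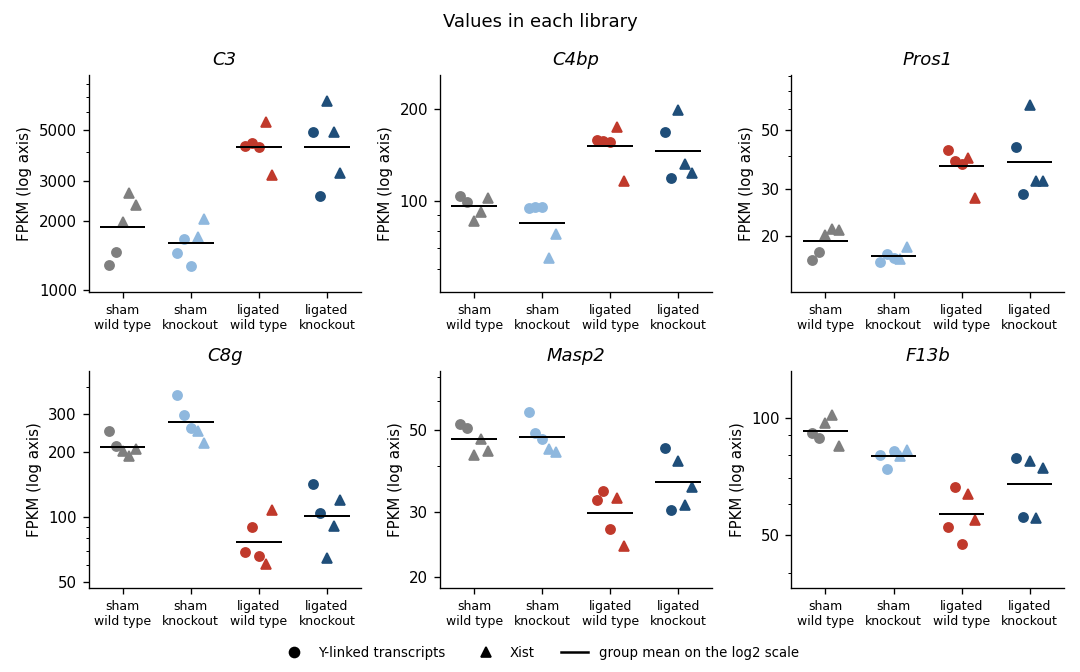
FPKM on log axes in each of the 20 libraries for C3, C4bp, Pros1, C8g, Masp2 and F13b. Circles are libraries with Y-linked transcripts, triangles those with Xist, and lines the group means on the log2 scale. C3, C4bp and Pros1 lie higher in every ligated library than in any sham library of the same genotype, and C8g lies lower.

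Terminal components split. C8g, the gamma chain of C8 (chr2:25498651-25501719), showed the largest fall of any member, while the genes of its partner chains were not called as deposited. C8g measured 249, 213, 203, 191 and 207 FPKM in sham and 68.6, 89.7, 66.3, 60.96 and 107 in ligated wild types, and 366, 295, 259, 249.8 and 220.0 in sham and 142, 105, 64.7, 90.5 and 119 in ligated knockouts. Every ligated library was below every sham library. The fall was -1.46 ± 0.19 (adjusted p = 1.8e-05) and -1.44 ± 0.19 (adjusted p = 5.7e-05), and both calls held in all 35 other settings. C8a, the alpha chain, measured 0.54 ± 0.35 (adjusted p = 0.247) and 0.50 ± 0.35 (adjusted p = 0.317), and C8b -0.53 ± 0.30 (adjusted p = 0.18) and -0.09 ± 0.30 (adjusted p = 0.854). In libraries with Y-linked transcripts C8b nevertheless read 171 to 211 FPKM after sham surgery and 84.5 to 134 after ligation, without overlap. With Xist it read 50.9 to 117 and 80.5 to 158, which overlapped. The level of C8g per that of C8a was 0.796 to 4.79 in sham and 0.249 to 0.710 in ligated livers, again without overlap. Of this pair only C8g was called, so the ratio is not evidence apart from its fall. The ratio of C8b to C8a overlapped, at 0.6755 to 0.9743 in sham and 0.3062 to 0.7448 in ligated livers, although not within wild types.

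Hc, which encodes C5, was called higher in knockouts under all 4 scalings, and in wild types under TPM (0.43) and quantile normalization (0.47) but not as deposited. It measured 200.1, 195, 161, 171 and 179 FPKM in sham and 197, 236, 203, 181 and 162 in ligated wild types, and 146, 152, 169, 95.95 and 127 in sham and 237, 172, 242, 178 and 190.1 in ligated knockouts. The 2 knockout groups did not overlap. Its change was 0.11 ± 0.15 (adjusted p = 0.621) in wild types and 0.57 ± 0.15 (adjusted p = 0.00909) in knockouts, 0.41 ± 0.16 without BDL_KO_2248 and BDL_KO_2359, and the difference between genotypes was 0.47 ± 0.21 (adjusted p = 0.365). Vtn, vitronectin, which binds the terminal complex, ranged from 1299.9 to 2829 FPKM and was not called as deposited, but was called higher in wild types under TPM (0.29) and quantile normalization (0.36) and in knockouts under all 3 other scalings (0.50, 0.38 and 0.50).

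C6, C8a, C8b and C9, which complete the membrane attack complex, were not called under ligation as deposited, and their spread within the sham groups followed the sex of the library as read from Y-linked transcripts or Xist. C8a was called higher in ligated wild types under TPM (0.87) and quantile normalization (0.93). The comparison by sex was chosen after the values were seen. In sham livers C6 measured 79.8 to 92.6 FPKM in the 5 libraries with Y-linked transcripts and 8.20 to 15.5 in the 5 with Xist, a difference of 3.01 ± 0.37 (adjusted p = 1.5e-04). C8a measured 241 to 289 against 52.2 to 166.0 FPKM, C8b 171 to 211 against 50.9 to 117, and C9 211 to 283 against 74.7 to 115. None of these ranges overlapped. The differences were 1.33 ± 0.18 (adjusted p = 4.5e-04) for C8a, 1.09 ± 0.19 (adjusted p = 0.00386) for C8b and 1.44 ± 0.21 (adjusted p = 9.3e-04) for C9. These 4 were the members called, all higher with Y-linked transcripts, when 2.21% of all genes were called and 1.25% called higher. All 4 calls held in the 21 other settings run for them. Both sham genotypes showed the split.

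After ligation 0 of the 42 members were called between the sexes, against 0.263% of all genes, with 1 member and 641 of all 14059 genes at an unadjusted p under 0.05. C6 measured 48.3 to 122.6 FPKM with Y-linked transcripts and 9.75 to 52.2 with Xist, a difference of 1.51 ± 0.37 (adjusted p = 0.198), and the 2 ranges met. C8a measured 199.6 to 324 and 212 to 235 FPKM, with a difference of 0.16 ± 0.18 (adjusted p = 1). The ligated libraries with Xist all exceeded the sham libraries with Xist for C8a, where the highest sham value was 166.0. The change of the sex difference with ligation was -1.17 ± 0.26 (adjusted p = 0.0847) for C8a, -1.14 ± 0.30 (adjusted p = 0.258) for C9, -0.99 ± 0.27 (adjusted p = 0.268) for C8b and -1.50 ± 0.52 (adjusted p = 0.648) for C6. It was called for 0 of 42 members and 0.334% of all genes, with 5 members and 743 of all 14059 genes at an unadjusted p under 0.05. Leaving out Sham_KO_2353 or BDL_KO_2248 gave 2 calls among the members.

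**Figure D3:**
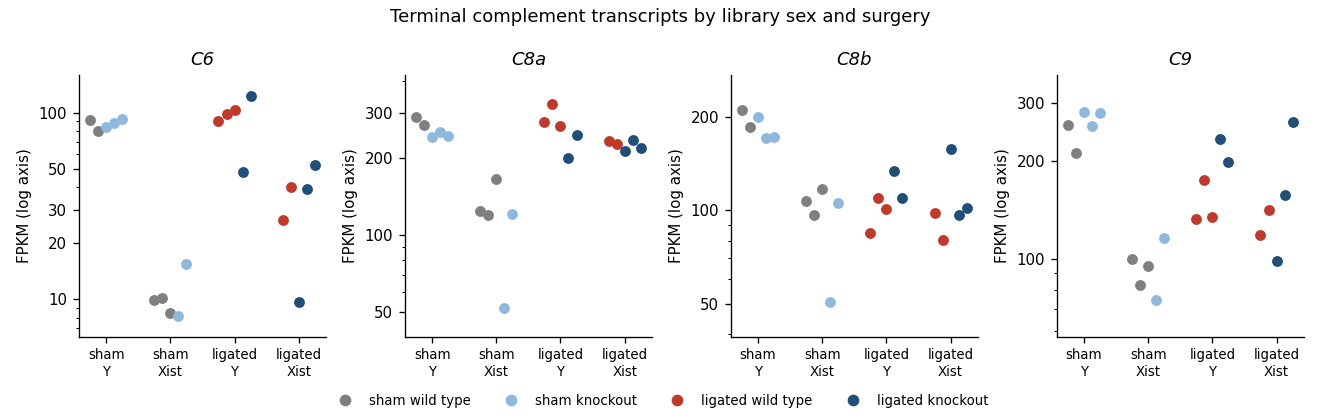
FPKM on log axes of C6, C8a, C8b and C9 in each library, by surgery and by the presence of Y-linked transcripts or of Xist, with colours for the 4 groups. Sham libraries form separate ranges, 79.8 to 92.6 against 8.20 to 15.5 FPKM for C6, and after ligation the ranges meet.

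The start regions of these 4 genes are printed because their transcripts shared that split. Each runs from 250 bases before to 25 bases after the RefSeq start on GRCm38.p6, 5′ to 3′ on the gene's strand. Capitals mark matches, on either strand, to the letters TTCNNNGAA (the STAT motif), TTNNGNAA (C/EBP) or GTTAAT (an HNF1 half-site), and overlapping matches would merge. The regions are C6 chr15:4726960-4727234, plus strand, C8a chr4:104876374-104876648, minus strand, C8b chr4:104766067-104766341, plus strand and C9 chr15:6445096-6445370, plus strand. RefSeq promoters were matched for 33 of the 42 members.
C6: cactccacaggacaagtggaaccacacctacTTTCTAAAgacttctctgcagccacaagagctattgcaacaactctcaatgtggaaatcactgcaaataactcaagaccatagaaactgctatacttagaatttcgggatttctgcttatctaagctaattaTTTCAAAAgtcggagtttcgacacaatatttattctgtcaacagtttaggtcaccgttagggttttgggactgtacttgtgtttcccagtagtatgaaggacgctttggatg
C8a: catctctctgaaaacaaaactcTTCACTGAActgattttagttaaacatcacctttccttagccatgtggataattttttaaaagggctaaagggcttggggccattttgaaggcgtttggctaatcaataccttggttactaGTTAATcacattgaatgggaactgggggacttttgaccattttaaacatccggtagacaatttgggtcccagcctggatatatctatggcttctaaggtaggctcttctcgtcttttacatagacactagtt
C8b: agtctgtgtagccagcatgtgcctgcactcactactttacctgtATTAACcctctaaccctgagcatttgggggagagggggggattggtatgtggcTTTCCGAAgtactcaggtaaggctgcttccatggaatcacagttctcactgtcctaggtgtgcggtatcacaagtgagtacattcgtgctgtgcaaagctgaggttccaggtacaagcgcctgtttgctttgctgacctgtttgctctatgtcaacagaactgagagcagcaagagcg
C9: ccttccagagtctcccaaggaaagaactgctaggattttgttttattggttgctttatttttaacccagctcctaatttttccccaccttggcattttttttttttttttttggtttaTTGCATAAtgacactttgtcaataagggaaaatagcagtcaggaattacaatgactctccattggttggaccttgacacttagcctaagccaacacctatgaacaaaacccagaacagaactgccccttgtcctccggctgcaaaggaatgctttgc
C8a held 1 STAT match, C6, C8b and C9 held 2, 1 and 1 C/EBP matches, and C8a and C8b each held 1 HNF1 half-site. No motif of the 3 was present in all 4. Over 27025 windows of the same length, 1 for each gene, 7.87% held the STAT letters, 38.9% the C/EBP letters and 6.85% the HNF1 half-site.

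Of the contact factors, which start clotting on surfaces, 1 was called in each genotype and both were lower. Klkb1, plasma prekallikrein, measured 48.7, 41.4, 43.6, 44.3 and 46.9 FPKM in sham and 22.6, 37.6, 20.2, 34.7 and 27.7 in ligated wild types, and 58.7, 49.9, 42.1, 32.7 and 34.9 in sham and 37.7, 32.3, 21.3, 34.3 and 38.6 in ligated knockouts. It was separate by surgery in wild types only, with -0.68 ± 0.19 (adjusted p = 0.00831) there and -0.40 ± 0.19 (adjusted p = 0.128) in knockouts, and the wild-type call was lost under TPM and total-fragment scaling. Gm45753 covers 43.2% of its exonic bases on the same strand. F11, factor XI, measured 47.03, 39.7, 35.9, 27.6 and 40.98 FPKM in sham and 31.8, 27.3, 30.5, 27.1 and 31.3 in ligated wild types, and 42.3, 28.9, 33.8, 20.5 and 34.2 in sham and 16.6, 24.4, 30.7, 20.2 and 17.6 in ligated knockouts. Its groups overlapped in both genotypes, and its change was -0.35 ± 0.18 (adjusted p = 0.151) and -0.53 ± 0.18 (adjusted p = 0.0397). The knockout call of F11 was lost on leaving out any 1 of 7 libraries, Sham_KO_2347, Sham_KO_2349, Sham_KO_2350, Sham_KO_2353, BDL_KO_2359, BDL_KO_2370 or BDL_KO_2371, and under TPM, quantile and total-fragment scaling. F12, factor XII, and Kng1, the kininogen that carries prekallikrein and factor XI, were not called as deposited, with 217 to 374 and 563 to 2635 FPKM. Kng1 was called higher in wild types under TPM (0.62) and quantile normalization (0.70) and in knockouts under TPM (0.78), total-fragment (0.65) and quantile scaling (0.70). It read 2635 FPKM in BDL_KO_2248 and 1690 in BDL_KO_2359, against 563 to 818 in the other ligated knockouts and 692 to 828 in sham knockouts.

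Of the 4 vitamin K-dependent zymogens and factor V, 4 genes fell in wild types under the deposited scaling. F2 (prothrombin), F7, F10 and the cofactor gene F5 were called lower, and F9 was not, but F7 alone was called under all 4 scalings, and F5 changed sign under TPM and quantile normalization. None of the 5 was called in knockouts, but without BDL_KO_2248 and BDL_KO_2359 both F2 (-0.38 ± 0.12) and F7 (-0.46 ± 0.18) were called lower there. F7, which starts clotting with tissue factor, measured 66.6, 59.1, 86.5, 93.7 and 96.1 FPKM in sham and 43.1, 52.7, 40.8, 50.8 and 47.5 in ligated wild types, and 75.7, 64.6, 55.5, 74.4 and 77.9 in sham and 77.9, 38.3, 87.1, 53.8 and 60.8 in ligated knockouts. All ligated wild types lay below all sham wild types, while knockout groups overlapped. The change was -0.75 ± 0.19 (adjusted p = 0.0043) and -0.18 ± 0.19 (adjusted p = 0.526).

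F10, which cleaves prothrombin, measured 173, 164, 223, 229 and 253 FPKM in sham and 126, 155, 119.7, 155 and 138 in ligated wild types, and 244, 227, 169, 190.1 and 186 in sham and 228, 147, 209.9, 181 and 205 in ligated knockouts. F2 measured 433, 427, 455, 487 and 508 FPKM in sham and 321, 351, 278, 358 and 330.3 in ligated wild types, and 482, 451, 393, 452 and 447 in sham and 481, 287, 586, 367 and 374 in ligated knockouts. In wild types the surgeries were separate for both genes. The changes were -0.57 ± 0.15 (adjusted p = 0.00562) and -0.07 ± 0.15 (adjusted p = 0.783) for F10, and -0.50 ± 0.15 (adjusted p = 0.0137) and -0.13 ± 0.15 (adjusted p = 0.571) for F2. F5 changed by -0.30 ± 0.11 (adjusted p = 0.0407) in wild types, a call lost on leaving out any 1 of 8 wild-type libraries, all but Sham_Wt_2223 and BDL_Wt_2235. F9, factor IX, measured 0.04 ± 0.16 and 0.05 ± 0.16, and was called higher in wild types under TPM (0.36) and quantile normalization (0.44). The difference between genotypes was not called for any of the 5, at 0.57 ± 0.27 (adjusted p = 0.383) for F7 and 0.51 ± 0.21 (adjusted p = 0.317) for F10. Of the genes that serve these proteins, Ggcx, the vitamin K-dependent carboxylase, fell by 0.48 ± 0.10 in wild types (limma adjusted p = 0.00075), and Vkorc1, which recycles vitamin K, fell by 0.97 ± 0.20 (limma adjusted p = 0.00094). In knockouts neither was called, at -0.18 ± 0.10 (limma adjusted p = 0.176) and -0.42 ± 0.20 (limma adjusted p = 0.127). Both genes were read under the deposited scaling alone.

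Fibrinogen is the precursor of fibrin. Its 3 chains are encoded side by side on chromosome 3, and their transcripts moved together from library to library. Fga measured 1935, 1936, 1762, 2004 and 3598 FPKM in sham and 3339.9, 2141, 3286, 2505 and 2042 in ligated wild types, and 1865, 1874, 2178, 1515 and 1752 in sham and 2406, 1550.0, 12457, 1799 and 1318 in ligated knockouts. The group ranges overlapped in both genotypes. BDL_KO_2248 was far above all others, with 12457 FPKM of Fga, 8071 of Fgb and 10423 of Fgg, and Sham_Wt_2229 was above its group with 3598, 2524 and 3509. The level of Fgb per that of Fga stayed between 0.648 and 0.770 and that of Fgg per Fga between 0.827 and 1.10 over all 20 libraries.

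None of the 3 chains was called under ligation. Fga measured 0.27 ± 0.43 (adjusted p = 0.666) in wild types and 0.49 ± 0.43 (adjusted p = 0.43) in knockouts, Fgb by 0.24 ± 0.41 and 0.53 ± 0.41, and Fgg by 0.06 ± 0.40 and 0.31 ± 0.40. Without BDL_KO_2248 and BDL_KO_2359, Fgb was called lower in ligated knockouts than in ligated wild types, at -0.83. With standard errors of 0.40 to 0.43, changes of the sizes measured were not detectable at 5 libraries a group.

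**Figure D4:**
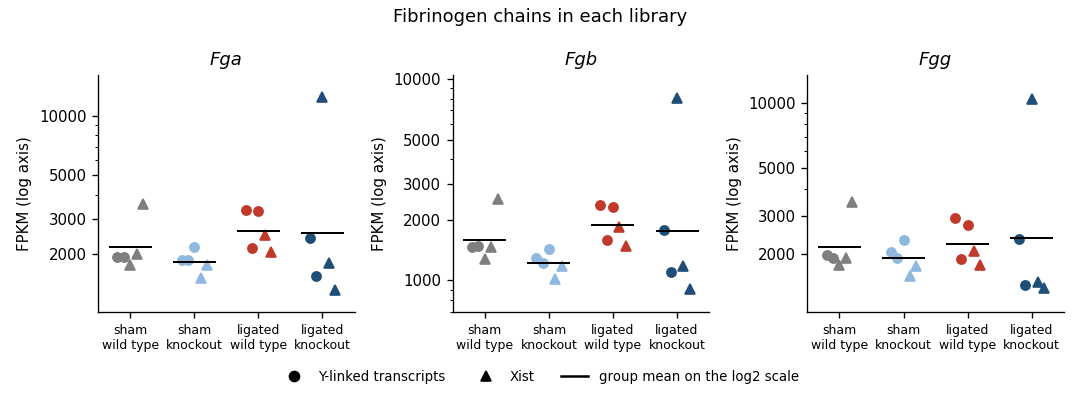
FPKM on log axes of the fibrinogen chains Fga, Fgb and Fgg in each of the 20 libraries. Circles are libraries with Y-linked transcripts, triangles those with Xist, and lines the group means on the log2 scale. One ligated knockout reads 12457, 8071 and 10423 FPKM, and one sham wild type reads 3598, 2524 and 3509.

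The start regions of the fibrinogen genes are shown in the same way because the chains moved together. They are Fga chr3:83025903-83026177, plus strand, Fgb chr3:83049839-83050113, minus strand and Fgg chr3:83007474-83007748, plus strand, and capitals mark the same motifs.
Fga: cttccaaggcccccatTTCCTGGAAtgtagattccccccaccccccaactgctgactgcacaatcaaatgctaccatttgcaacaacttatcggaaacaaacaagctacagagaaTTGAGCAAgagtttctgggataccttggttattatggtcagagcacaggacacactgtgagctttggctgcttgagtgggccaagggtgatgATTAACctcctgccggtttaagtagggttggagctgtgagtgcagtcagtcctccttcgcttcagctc
Fgb: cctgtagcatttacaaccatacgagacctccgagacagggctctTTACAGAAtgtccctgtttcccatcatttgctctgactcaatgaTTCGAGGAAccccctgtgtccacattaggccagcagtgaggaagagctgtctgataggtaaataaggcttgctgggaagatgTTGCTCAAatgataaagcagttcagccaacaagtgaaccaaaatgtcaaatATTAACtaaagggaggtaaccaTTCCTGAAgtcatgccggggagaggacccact
Fgg: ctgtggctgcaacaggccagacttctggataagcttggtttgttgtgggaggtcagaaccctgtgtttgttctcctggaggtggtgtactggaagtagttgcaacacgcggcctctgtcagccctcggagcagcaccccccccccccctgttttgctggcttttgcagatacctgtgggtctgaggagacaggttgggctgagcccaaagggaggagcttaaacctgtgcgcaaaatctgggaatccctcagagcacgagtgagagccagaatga
Fga and Fgb each held 1 STAT match and 1 HNF1 half-site, with 1 C/EBP match in Fga and 3 in Fgb. The Fgg window held none of these letters. The RefSeq start of Fga lies 77 bases from the outermost start in GENCODE M21, and those of Fgb and Fgg coincide with it.

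F13b, the carrier subunit of factor XIII, which crosslinks fibrin, fell in wild types. It measured 91.2, 88.7, 96.8, 102 and 84.5 FPKM in sham and 52.2, 66.3, 47.4, 63.8 and 54.4 in ligated wild types, and 80.2, 73.7, 82.1, 79.8 and 82.6 in sham and 78.8, 55.4, 77.3, 55.4 and 74.3 in ligated knockouts. Wild-type groups were separate and knockout groups overlapped. The change was -0.71 ± 0.12 (adjusted p = 1.4e-04) and -0.24 ± 0.12 (adjusted p = 0.146), and the difference between genotypes was 0.47 ± 0.17 (adjusted p = 0.224). The fall in knockouts was called, at -0.38 ± 0.12, without BDL_KO_2248 and BDL_KO_2359.

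The anticoagulants went both ways. Pros1, protein S, the cofactor of activated protein C (chr16:62854307-62929346), rose in both genotypes, and Proc, protein C itself, was called lower in both. Pros1 measured 16.2, 17.3, 20.1, 21.1 and 20.9 FPKM in sham and 42.2, 38.3, 37.2, 39.3 and 27.7 in ligated wild types, and 15.9, 17.1, 16.4, 16.3 and 18.1 in sham and 43.1, 28.8, 62.2, 32.03 and 32.1 in ligated knockouts. No ligated library overlapped the sham libraries, and the changes were 0.93 ± 0.16 (adjusted p = 2.6e-04) and 1.16 ± 0.16 (adjusted p = 8.3e-05).

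Proc measured 403, 367, 353, 367 and 379 FPKM in sham and 219.8, 263, 199, 269 and 236 in ligated wild types, and 559.7, 497, 345, 356 and 339.7 in sham and 367, 245, 352, 301 and 261 in ligated knockouts. Its wild-type groups were separate and its knockout groups overlapped, with -0.66 ± 0.15 (adjusted p = 0.00242) and -0.44 ± 0.15 (adjusted p = 0.0404). The knockout call was lost on leaving out Sham_KO_2347, Sham_KO_2349, BDL_KO_2365, BDL_KO_2370 or BDL_KO_2371 and under TPM and quantile scaling, and the wild-type call under quantile normalization. The level of Pros1 per that of Proc was 0.0284 to 0.0576 in sham livers and 0.106 to 0.192 in ligated livers. Pros1 was called higher and Proc lower, so this ratio is not evidence apart from those calls.

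Serpinc1 (antithrombin) and Serpind1 (heparin cofactor II), both inhibitors of thrombin, were called lower in wild types under the deposited scaling, but neither was under TPM or total-fragment scaling, Serpind1 was not under quantile normalization, and Serpinc1 changed sign under quantile normalization. Serpind1 measured 274, 241, 266, 271 and 274 FPKM in sham and 176, 238, 139, 192 and 187 in ligated wild types, and 246, 237, 222, 206 and 227 in sham and 225, 189.9, 173, 207 and 229.9 in ligated knockouts. The groups were separate in wild types and overlapped in knockouts. Its changes were -0.53 ± 0.12 (adjusted p = 0.00241) and -0.16 ± 0.12 (adjusted p = 0.37). Hrg, histidine-rich glycoprotein, was not called as deposited, at 0.60 ± 0.43 (adjusted p = 0.305) and 1.03 ± 0.43 (adjusted p = 0.0899), but was called higher in wild types under TPM and quantile scaling (0.92 and 0.96) and in knockouts under all 3 other scalings (1.21, 1.08 and 1.16). It read 2226.7 FPKM in BDL_KO_2359 and 2206 in BDL_KO_2248, against 285 to 654 in the other ligated knockouts.

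No fibrinolysis member was called in any comparison of surgery and genotype under the deposited scaling. Plg, plasminogen, measured 570.0, 572, 645, 683 and 644 FPKM in sham and 519, 565, 428, 576 and 455 in ligated wild types, and 500.0, 525, 531, 523 and 540.2 in sham and 690.3, 374, 1045, 494 and 445 in ligated knockouts. Serpinf2, the plasmin inhibitor, measured 441, 375, 485, 500.3 and 542 FPKM in sham and 419.8, 493, 380.1, 449 and 329 in ligated wild types, and 433, 380.5, 404, 349 and 385 in sham and 626, 357, 689, 405 and 371 in ligated knockouts. Ligated and sham groups overlapped for both genes in both genotypes. The sham knockouts all read below the sham wild types for Plg, a difference of -0.25 ± 0.20 (adjusted p = 0.565). The changes were -0.30 ± 0.20 (adjusted p = 0.26) and 0.12 ± 0.20 (adjusted p = 0.704) for Plg, and -0.18 ± 0.18 (adjusted p = 0.46) and 0.27 ± 0.18 (adjusted p = 0.27) for Serpinf2. Cpb2, a carboxypeptidase that slows fibrinolysis, measured 0.47 ± 0.27 (adjusted p = 0.183) and 0.67 ± 0.27 (adjusted p = 0.0702). Under TPM, total-fragment and quantile scaling Cpb2 was called higher in both genotypes, at 0.79, 0.66 and 0.85 in wild types and 0.85, 0.73 and 0.84 in knockouts, and Serpinf2 was called higher in knockouts under TPM (0.46) and quantile normalization (0.51). Cpb2 read 884 FPKM in BDL_KO_2248 and 400 in BDL_KO_2359, against 204 to 292 in the other ligated knockouts. The same libraries read highest for Serpinf2.

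Between genotypes 4 members were called in at least 1 surgery, C2, C4b, Cfb and Serpinc1, and neither count was far from the share of all genes called. After sham surgery 2 of 42 were called, both lower in the knockout, C2 at -0.56 ± 0.10 (adjusted p = 0.00668) and C4b at -0.73 ± 0.19 (adjusted p = 0.0404), when 2.97% of all genes were called, 1.31% higher and 1.66% lower. The C4b call was lost on leaving out any 1 of 12 libraries (each sham library but Sham_Wt_2223, and BDL_Wt_2233, BDL_Wt_2235 and BDL_Wt_2236), with adjusted p up to 0.103, although the change stayed between -0.80 and -0.69. Without Sham_KO_2347 and Sham_KO_2349 it was -0.77 ± 0.23 and not called, while C2 was called at -0.65 ± 0.11. After ligation 3 were called, C2 at -0.64 ± 0.10 (adjusted p = 5.0e-04), Cfb at -0.68 ± 0.16 (adjusted p = 0.0151) and Serpinc1 at 0.37 ± 0.10 (adjusted p = 0.0309), when 8.83% of all genes were called, 3.46% higher and 5.37% lower. Serpinc1 measured 267, 261, 291, 312 and 306 FPKM in sham wild types, 226, 253, 198, 235 and 225 in ligated wild types, 360.2, 322, 264, 322 and 297 in sham knockouts and 308, 264, 287, 298 and 309.5 in ligated knockouts. All ligated knockouts exceeded all ligated wild types. Opposite-strand transcripts of Zbtb37 cover 34.4% of its exonic bases.

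C2 was lower in the knockout after both surgeries. These comparisons share no library, but their p-values share 1 estimate of the spread from the fit over all 20 libraries. C2 was called under all 4 scalings in both. Within libraries with Y-linked transcripts it measured -0.53 after sham surgery and -0.61 after ligation, and within those with Xist -0.66 and -0.67, with only the -0.61 called at that number of libraries. Cfb was also called under all 4, while the call of Serpinc1 was lost under TPM, total-fragment and quantile scaling, and on leaving out BDL_Wt_2233, BDL_Wt_2236, BDL_Wt_2240, BDL_KO_2359 or BDL_KO_2371. The Cfb call was lost without BDL_Wt_2236 or BDL_KO_2359, with adjusted p up to 0.0502, and C2 was then the 1 member called. Other scalings gave 5 (TPM), 4 (total fragments) and 5 (quantile) members lower after sham surgery, and 7, 5 and 6 lower after ligation, with 0 higher. In the same order, 186, 142 and 217 of all genes were lower and 22, 45 and 164 higher after sham surgery. After ligation 1756, 1177 and 797 of all genes were lower and 119, 153 and 561 higher. TPM moved the median of all genes by -0.12 and -0.25 in these 2 comparisons. Without BDL_KO_2248 and BDL_KO_2359, 3 members were called after ligation, C2 at -0.57, Serping1 at -0.42 and Fgb at -0.83, all lower in the knockout. Without BDL_KO_2365 there were 7, with Vtn, Serpinc1, F2, F10 and F7 higher. The number of all genes called also changed with the libraries left out, so these counts are not read as a result about the members. Of the hepatocyte markers 6 of 13 were called higher in ligated knockouts than in ligated wild types, and their part in these differences was not tested.

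**Figure D5:**
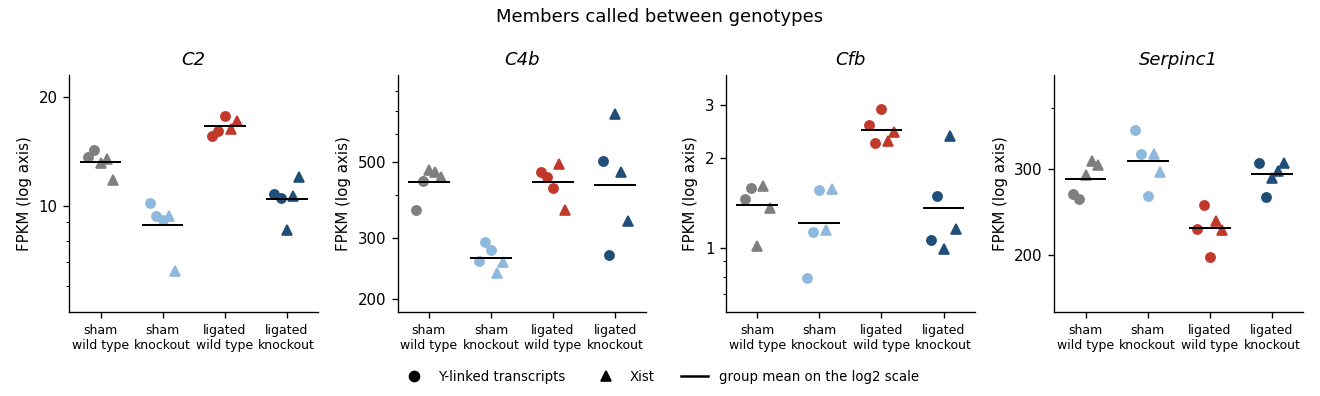
FPKM on log axes of the 4 members called between genotypes, C2, C4b, Cfb and Serpinc1, in each of the 20 libraries. Circles are libraries with Y-linked transcripts, triangles those with Xist, and lines the group means on the log2 scale. Sham knockouts read 6.59 to 10.2 FPKM of C2 against 11.8 to 14.3 in sham wild types.

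The effect of ligation differed between genotypes for 0 of 42 members, when 0.377% of all genes were called. By limma 9 members had an unadjusted p under 0.05 in that test, as did 1768 of all 14059 genes. They were C4b, Hc, F5, F10, Serpind1, F13b, Masp1, F7 and Cfb. By voom on recovered fragments, an alternative added after the data were seen, 0 were called and 8 had one. The lowest adjusted p among them was 0.157, for Masp1 at 0.67 ± 0.20. Calls made in 1 genotype alone, such as those of F7 or F13b, are therefore not shown to differ between genotypes.

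Other genes of the same pathways were read from lists of receptors, regulators and initiators, under the deposited scaling. Of 26 tested complement genes 9 rose and 9 fell in ligated wild types, and 7 rose and 6 fell in knockouts. Over all genes 18.1% rose and 17.5% fell in wild types, and 12.3% rose and 12.9% fell in knockouts. The largest rises in wild types were those of Clu, clusterin, an inhibitor of the terminal complex, by 2.16 ± 0.28 to 2123 ± 753 FPKM (SD), of C5ar1, the C5a receptor, by 2.08 ± 0.25 to 2.76 ± 0.61 FPKM, and of C3ar1, the C3a receptor, by 1.79 ± 0.28 to 3.44 ± 0.74 FPKM. The collectins Colec10 and Colec11 showed the largest falls, by 1.42 ± 0.18 and 1.31 ± 0.36, with Cd59b, which blocks the terminal complex, at 1.10 ± 0.30 lower on the log2 scale.

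Of 21 tested coagulation genes 9 rose and 4 fell in wild types, and 7 rose and 3 fell in knockouts. The shares over all genes are those given for the complement list. Among those that rose, Anxa2, a plasminogen receptor subunit, did so by 3.18 ± 0.51 and F2rl1, a protease-activated receptor, by 2.01 ± 0.31. Tfpi2, Adamts13 and F8 fell by 0.84 ± 0.24, 0.78 ± 0.17 and 0.50 ± 0.17. Between ligated genotypes 0 of these genes were higher and 5 lower in the knockout, against 3.46% and 5.37% of all genes. Of 6 genes of the vitamin K cycle and of clotting factor secretion, 0 rose and 3 fell in wild types. In knockouts 1 rose and 0 fell, and 2 were higher in ligated knockouts than in ligated wild types, beside the same shares over all genes. Like the members, these genes were read in whole liver, where cholangiocyte markers summed to 26.5 to 32.1 FPKM in sham and 232 to 621 in ligated wild types, and 32.7 to 37.7 and 68.9 to 570 in knockouts, with Cldn4 and Cftr among those listed at 0 in at least 1 library. Monocyte and macrophage markers summed to 124.5 to 221 and 491 to 648 FPKM in wild types and 131 to 228 and 119 to 622 in knockouts. Their part in these results was not tested.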

How the data were processed

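Liver RNA from 20 libraries in 4 groups of 5 was analysed. The deposited values are FPKM per Ensembl gene. Per the submitters' processing notes, the tools named are DESeq2 1.20.0, featureCounts 1.5.0-p3, HISAT2 2.0.5, fastp and CASAVA 1.8, with the mouse builds GRCm38 and mm10. The annotation and the use of strand in counting are not given in the sources used here. With GENCODE M21 exonic lengths, 98.13 to 98.51% of low values came out as whole fragments (tolerance 0.02), which gave the depths printed in the results. 1 fragment on a 1 kb gene was worth 0.047 to 0.073 FPKM. The deposited values carry a median-ratio scaling between libraries, which moves with the composition of the RNA.

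Values were tested as log2(FPKM + 0.5) with limma 3.58.1 in 1 fit over all 4 groups, with trended and robust variances. Genes needed 0.5 FPKM in at least 5 libraries, which 14059 met. The pseudocount understates changes of low genes. P-values were Benjamini-Hochberg adjusted over all tested genes, threshold 0.05, and an adjusted p without another tool's name is from this fit. The script was tested on simulated data. Voom on recovered fragments and scaling to total assigned fragments were alternatives added after the data were seen. Library sex was read from Ddx3y, Kdm5d, Eif2s3y and Uty against Xist, and its comparisons were added after the data were seen. Nothing in the labels says whether replicates share a litter or a cage, so a p-value covers no more than the spread among the libraries sequenced. The 42 members, the role classes and the gene lists were chosen with earlier results of these data known. Values in every library are given for up to 3 members a class with the largest called changes under ligation, for each member called between genotypes and for the 2 most abundant members of a class with no call, and C6, C8a, C8b, C9 and fibrinogen were added after their values were seen. Marker lists were read for hepatocytes, cholangiocytes, macrophages, stellate cells, neutrophils, sinusoidal endothelium, lymphocytes, and blood, pancreas and fat. Samples of Abcb4-deficient mice, which the design text names, were not analysed here. Some genes of these lists are not reported here by name.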

Additional observations from a re-analysis of the deposited data

Results flagged for a closer look

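Of 168 sets of 5 values (42 members in 4 groups), 14 held 1 library far from the other 4 by Dixon's test at a critical value of 0.71, and chance flags about 1 in 20 such sets. The most frequent was BDL_KO_2248, which read 33.7 FPKM of Masp1, 12457 of Fga, 8071 of Fgb, 10423 of Fgg and 884 of Cpb2, each the highest of the ligated knockouts. Sham_Wt_2229 was the highest sham wild type for all 3 fibrinogen chains, at 3598 FPKM of Fga, 2524 of Fgb and 3509 of Fgg. These chains are encoded side by side and moved together, so their flags are not separate events.

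The other 6 were single genes. C4b read 363 FPKM in Sham_Wt_2223, the lowest of its group. Serping1 read 631 FPKM in BDL_Wt_2237, Mbl2 read 352 FPKM and Masp1 14.6 FPKM in BDL_Wt_2240, Kng1 read 828 FPKM in Sham_KO_2347 and Serpind1 read 241 FPKM in Sham_Wt_2224.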

How the results depend on the processing

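Libraries of 1 kind alone gave fewer calls. With Y-linked transcripts they gave 9, 4, 0 and 1 members for ligation in wild types, ligation in knockouts, knockout after sham and knockout after ligation, and 3126, 1072, 0 and 308 genes in all, with 2 for the interaction. With Xist they gave 3, 3, 0 and 0 members and 911, 550, 7 and 8 genes, with 0 for the interaction. Fits of only the 2 groups compared gave 6 members and 1694 genes for ligation in knockouts, 4 and 821 for knockout after sham and 1 and 283 for knockout after ligation. TPM scaling gave 5 members and 208 genes for knockout after sham, 7 and 1875 after ligation and 11 genes for the interaction, and turned F5 in ligated wild types to 0.0225. Quantile normalization gave 5 and 6 members between genotypes and turned F5 to 0.0914 and Serpinc1 to 0.0459. Total-fragment scaling gave 4 members and 187 genes after sham, 5 members after ligation and 21 genes for the interaction. Without a filter there were 1 member and 208 genes after sham and 9 genes for the interaction, and with library sex as a covariate 1 member after sham. Without BDL_KO_2248 and BDL_KO_2359 there were 4 members and 1041 genes after sham and 178 for the interaction, and voom gave 22 for the interaction. Without Sham_KO_2347 and Sham_KO_2349, a setting added after the data were seen, there were 2279 genes for ligation in knockouts, 1 member and 118 genes after sham and 7 genes for the interaction. The causes were not tested.

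Leaving out 1 library gave 15 to 20 members and 4279 to 5466 genes for ligation in wild types, 8 to 14 and 2614 to 4096 in knockouts, 1 to 3 and 155 to 659 for knockout after sham, 1 to 7 and 618 to 2061 after ligation, and 0 members and 8 to 151 genes for the interaction. For library sex it gave 4 to 5 members and 186 to 458 genes after sham, 0 members and 25 to 44 genes after ligation, and 0 to 2 members and 26 to 73 genes for their difference. With 5 libraries a group, low genes such as Cfb rest on few fragments. No paired analysis was possible because the library numbers in the titles are not shared between groups.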

Other observations

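C4b, Cfb and C2, the 3 members lower in the knockout in at least 1 surgery, are neighbours on chromosome 17, between bases 34728380 and 34898265 of GRCm38, in the class III part of the major histocompatibility complex. The window of genes within 1 Mb of them was chosen after the values were seen and is a description. It held 105 tested genes, of which 12 were lower and 1 higher in sham knockouts and 16 lower and 1 higher in ligated knockouts. In both surgeries 8 were lower, or 7.62%: H2-D1, H2-Q4 and H2-Q6, class I molecules or relatives of them, Tapbp and Tap1, which load and supply peptides for class I, Psmb8 and Psmb9, subunits of the immunoproteasome, and C2. Of 574 tested genes elsewhere on chromosome 17, 3 moved the same way in both, or 0.523%, and of 13274 on other chromosomes 126 did, or 0.949%.

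Other marker lists were counted in the same fit. After ligation in wild types stellate cell markers had 3 higher and 0 lower, neutrophil markers 3 and 0 of 3 tested, sinusoidal endothelial markers 0 and 4 of 6, lymphocyte markers 0 and 1 of 1 and blood, pancreas and fat markers 0 and 1 of 3. In knockouts stellate and neutrophil markers each had 2 higher and 0 lower, and sinusoidal markers 0 and 2.

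The members took 3.65 to 5.32% of summed FPKM in sham wild types, 3.13 to 3.74% in sham knockouts, 5.02 to 6.86% in ligated wild types and 4.26 to 10.3% in ligated knockouts. The highest of these shares was that of BDL_KO_2248, and BDL_KO_2359 was at 5.25%.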
